A study of Mus musculus with 17 samples.

Results

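The miR-23, miR-24 and miR-27 families were followed in mouse kidney through the 5 mature miRs that the array names mmu-miR-23a, mmu-miR-23b, mmu-miR-24, mmu-miR-27a and mmu-miR-27b. They were taken by name, as 5 of the 569 mature mouse miRs on the array, and each was printed as 6 spots. All 5 passed the filter on low values, a normalized value of at least 200 in at least 1 sample, together with 157 other miRs, so that 162 miRs were tested.

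The kidneys came from wild-type C57BL/6 mice aged 10 to 12 weeks, which the labels describe as female and the methods as male. The IRI group underwent 30 minutes of warm ischemia followed by reperfusion, the sham group underwent surgery without ischemia, and the naïve group was untreated. Kidneys of the IRI and sham groups were taken on day 1, day 3, day 5, day 7, day 10, day 14, day 21 and day 30, and each of the 17 samples was RNA pooled from 3 mice, with 1 pool per group and day. On each of 8 arrays the IRI pool of a day, labelled with the dye Cy3, was hybridised together with the sham pool of that day, labelled with Cy5, and the naïve pool was hybridised alone in Cy3. The dyes were never swapped, so that in a mean IRI/sham ratio the ischemia and a constant dye effect at a probe cannot be told apart. A pool of whole kidney holds many cell types, and fewer cells of a type cannot be told apart from less RNA per cell.

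In the mouse genome the 5 miRs come from 2 paralogous clusters, in each of which the hairpins of a miR-23, a miR-27 and a miR-24 lie side by side on the same strand and are made from a common primary transcript. A miR recognises its target mRNAs mainly through its seed, bases 2 to 8, and lowers their translation and stability. In textbook accounts miR-23 acts on glutamine metabolism, miR-24 on the cell cycle and on cell death, and miR-27 on fat storage and vessel growth, and the clusters are best known from blood vessels and blood cells. The question here was whether the 5 miRs moved by cluster, as neighbours made together, or by family, as near-identical paralogs.

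The first cluster lies on chromosome 8 of GRCm38.p6, plus strand, where Mir23a spans chr8:84208518-84208592, Mir27a chr8:84208672-84208758 and Mir24-2 chr8:84208815-84208921, 404 bases in all. No RefSeq gene in the table spans the whole of it, and the nearest coding genes are Nanos3 before it and Zswim4 after it. The second lies on chromosome 13, plus strand, where Mir23b spans chr13:63300484-63300557, Mir27b chr13:63300712-63300784 and Mir24-1 chr13:63301208-63301275, 792 bases in all and within the span of the protein-coding gene Aopep.

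The target sequences on the array are shown because their likeness bears on every comparison below, with the seed in capitals:
miR-23a: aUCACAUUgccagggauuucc
miR-23b: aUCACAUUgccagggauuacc
miR-27a: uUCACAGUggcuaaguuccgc
miR-27b: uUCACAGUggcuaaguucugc
miR-24: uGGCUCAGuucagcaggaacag

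Counted from 1 at the 5′ end, miR-23a and miR-23b differed at 1 base (U19A, miR-23a first), and miR-27a and miR-27b differed at 1 base (C19U, miR-27a first). The seed was the same within each pair of paralogs, and those of miR-23 and miR-27 differed at 1 base. The mature miR-24 is the same molecule from both clusters, so that its value is the sum of the 2 loci. The closest target outside the 5 was 7 edits away from miR-23a, 8 from miR-23b and miR-27b, and 9 from miR-24 and miR-27a. No other miR on the array shared a seed with the 5. RefSeq held the same mature sequence for 4 of the 5, and the sequence of miR-23b was taken from the array files, where it was found whole in the RefSeq hairpin Mir23b.

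The other strands of the same hairpins are the probes that could tell the miR-24 loci apart, and they are shown for that reason:
miR-24-1*: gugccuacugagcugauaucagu
miR-24-2*: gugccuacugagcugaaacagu

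Together with miR-27a* and miR-27b*, these 4 strands were on the array, and 0 of the 4 reached the minimum value. Their normalized values lay between 78.5 and 160 over the 17 samples, with mean log2 IRI/sham ratios between -0.06 and 0.02. The share of mature miR-24 that came from each cluster was therefore not measurable from them.

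All 5 miRs were above the empty spots in all 17 samples, by more than 3 median absolute deviations. Their spots averaged 5.47 to 121 times the median empty spot in IRI and 6.81 to 481 times in sham, but 1.16 to 1.92 times in naïve. The naïve array was the weakest, with a mean signal over background of 208.7 units, against 1114 to 1412 in IRI and 525.5 to 1057 in sham. The standard error over the 6 spots of a log2 IRI/sham ratio was between 0.02 and 0.08 for the 5 miRs, and 32 of their 40 ratios lay more than 2 such errors from 0. This error covers the spots of 1 array only, and the days served as replicates for the tests.

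**Figure D1:**
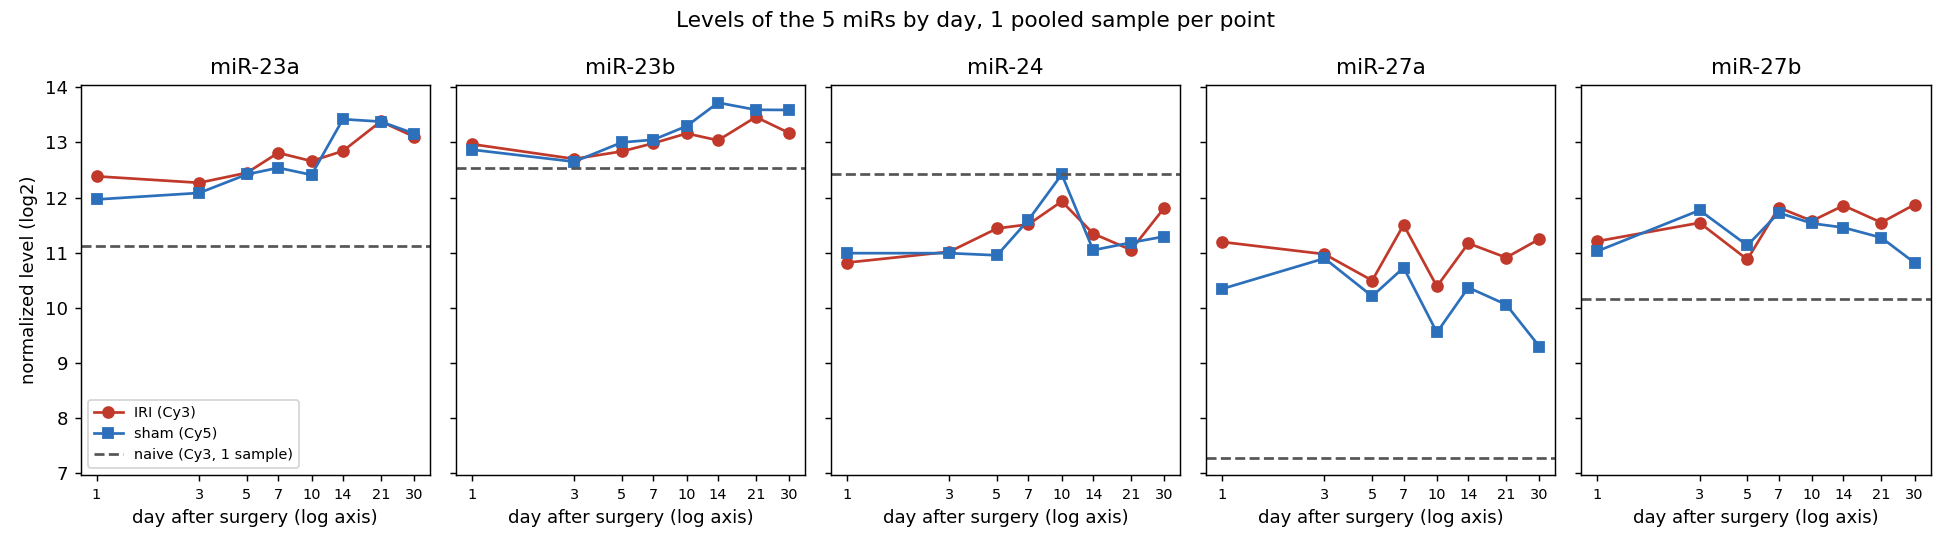
Normalized log2 level of each miR against the day after surgery (log axis), with IRI as circles, sham as squares and the naïve sample as a dashed line, 1 pooled sample per point. miR-27a in IRI lies above sham on all 8 days, and miR-23a and miR-23b have their highest value on day 21 in IRI and on day 14 in sham, with the naïve line below both arms for every miR but miR-24 (levels of different probes are not to be compared).

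Of the 5 miRs, miR-27a alone differed between IRI and sham past the threshold. It was higher in IRI, with a log2 IRI/sham ratio of 0.80 ± 0.55 (SD, n = 8 arrays), a 1.75-fold difference. miR-23a, miR-23b, miR-24 and miR-27b had mean log2 ratios between -0.18 and 0.20. Among the 162 miRs tested, 36.4% passed, 30 higher and 29 lower in IRI. That count depended on the processing and the days, and was 8 of 128 with plain background subtraction, and 29 of 157 without day 7, 29 of 156 without day 14, 26 of 159 without day 21 and 36 of 159 without day 30, with miR-27a as the 1 called of the 5 in each.

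The log2 level of miR-27a, a miR known for its action on lipid genes, was between 10.39 (day 10) and 11.50 (day 7) in IRI, with a median of 11.07. In sham it was between 9.30 (day 30) and 10.90 (day 3), with a median of 10.28. The arms overlapped, and 6 of the 8 sham samples lay below the lowest IRI sample.

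Its log2 ratio started at 0.85 (day 1) and was lower in the next pools, at 0.08 (day 3) and 0.28 (day 5). It stood at 0.78 (day 7), 0.83 (day 10), 0.80 (day 14) and 0.85 (day 21), and the last array gave 1.95 (day 30). The ratio thus favoured IRI on 8 of 8 arrays, with the smallest difference on day 3 and the largest on day 30. A ratio above 0 on all 8 arrays was found for 13.0% of the tested miRs. The limma test gave a standard error of 0.18 and an adjusted p of 0.012 over the 162 miRs, and the exact two-sided sign-flip test gave p = 0.0078, the smallest it can give with 8 arrays.

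The call of miR-27a was lost when the channels were scaled by their medians, at a log2 ratio of 0.90 and an adjusted p of 0.067, where 7 of 8 arrays were above 0 and the median of all tested miRs itself moved to 0.20. It passed under every other processing that was tried. Without day 30 its ratio was 0.64, with an adjusted p of 0.016.

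Some markers of cell types also differed between the arms, and their counts are to be read against the 36.4% of all tested miRs that passed. The 3 fibroblast miRs on the array, miR-199a-3p, miR-199a-5p and miR-214, were all higher in IRI, with summed normalized levels of 2221 to 9835 in IRI, 1442 to 3325 in sham and 2909 in naïve. Of the 5 leukocyte miRs 3 were tested, and miR-223, miR-150 and miR-155 were higher in IRI, with summed levels over all 5 of 1447 to 3266 in IRI, 819.9 to 1177 in sham and 632.3 in naïve, while miR-142-3p and miR-142-5p did not reach the minimum value. Of the 9 tubule miRs 7 were tested, and 3 were lower in IRI, miR-192, miR-194 and miR-30d, a share near that of all tested miRs. The estimates of the other 4 tested were between -0.41 and 0.26, with miR-30b as the 1 above 0, and miR-204, below the minimum value, stood at 0.29. The summed levels of all 9 were 17550 to 26870 in IRI, 19880 to 32080 in sham and 21470 in naïve. The 1 tested of the 2 endothelial miRs, miR-126-3p, both smooth muscle miRs and the 2 tested of the 3 erythroid miRs did not pass. Their part in the difference of miR-27a was not tested.

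**Figure D2:**
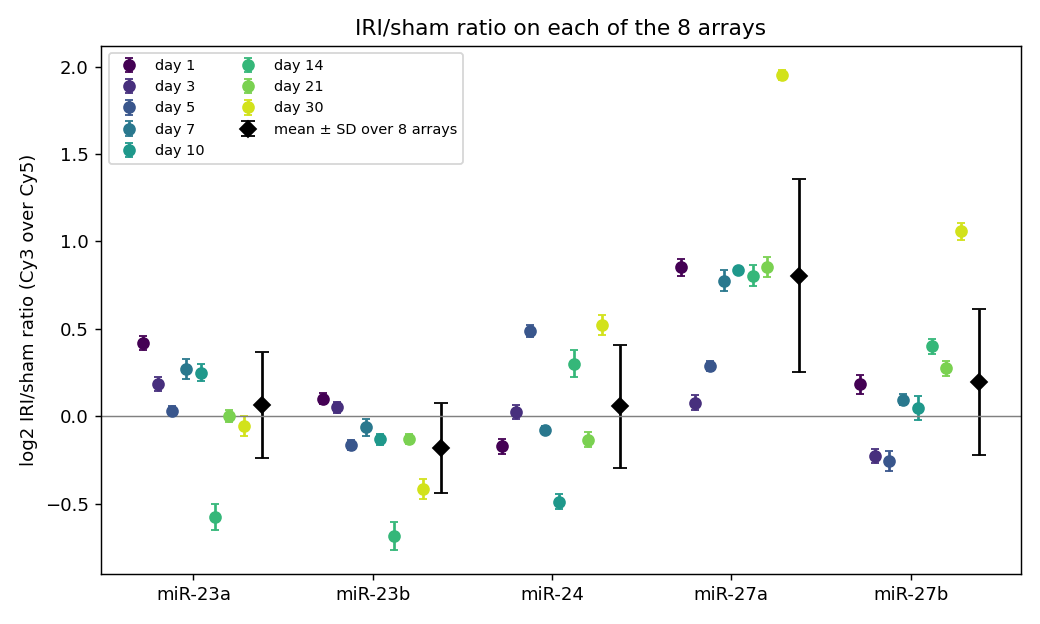
Log2 IRI/sham ratio of each miR on each of the 8 arrays, coloured by day, with the standard error over 6 spots as bars, and the mean ± SD over the arrays as a diamond. The points of miR-27a all lie above 0, up to 1.95 on day 30, whereas those of the other 4 miRs lie on both sides of 0.

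miR-27b, which differs from miR-27a at 1 base, had a log2 level between 10.88 (day 5) and 11.87 (day 30) in IRI, with a median of 11.56. In sham it was between 10.82 (day 30) and 11.77 (day 3), with a median of 11.36, so that the arms overlapped over nearly their whole range. Its log2 ratio was 0.20 ± 0.42 (SD, n = 8), above 0 on 6 of 8 arrays, and did not pass (limma, adjusted p = 0.32). It was 0.07 without day 30, and 0.08 with the authors' processed values, where 4 of 8 arrays were above 0. As for miR-27a, the ratio was highest on day 30, at 1.06, a 2.08-fold difference, and the lowest ratios were on days 3 and 5, at -0.23 and -0.25.

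miR-23a, a regulator of glutaminase, had a log2 level between 12.27 (day 3) and 13.38 (day 21) in IRI, with a median of 12.74. In sham it was between 11.97 (day 1) and 13.42 (day 14), with a median of 12.48. Its log2 ratio was 0.07 ± 0.30 (SD, n = 8), above 0 on 6 of 8 arrays, from 0.42 on day 1 to -0.58 on day 14, and did not pass (limma, adjusted p = 0.65). It was 0.16 without day 14 and 0.01 without day 1, 0.18 with plain background subtraction and with the authors' processed values, and -0.09 with median scaling of the channels.

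miR-23b had a log2 level between 12.70 (day 3) and 13.46 (day 21) in IRI, with a median of 13.01. In sham it was between 12.65 (day 3) and 13.72 (day 14), with a median of 13.17. Its log2 ratio was -0.18 ± 0.26 (SD, n = 8), below 0 on 6 of 8 arrays, from 0.10 on day 1 to -0.68 on day 14, and did not pass (limma, adjusted p = 0.17). With plain background subtraction it was -0.036 and with the authors' processed values -0.0070, each with 5 of 8 arrays above 0, so that neither its size nor its share of arrays was kept. It was -0.37 with median scaling of the channels and -0.11 without day 14. The days of its highest and lowest ratio were the same as for miR-23a.

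miR-24, the miR that both clusters make, had a log2 level between 10.82 (day 1) and 11.93 (day 10) in IRI, with a median of 11.39. In sham it was between 10.95 (day 5) and 12.42 (day 10), with a median of 11.11. The day 10 pool was the highest of its arm in both. The log2 ratio of miR-24 was 0.06 ± 0.35 (SD, n = 8), with 4 arrays above 0 and 4 below, from 0.52 on day 30 and 0.49 on day 5 to -0.49 on day 10, and did not pass (limma, adjusted p = 0.71). It was 0.14 without day 10, and below 0 without day 5 or day 30.

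Change with time was tested as a slope of the ratio on log2(day), from which a constant dye effect drops out. The slopes were 0.20 ± 0.11 (SE) for miR-27a and 0.16 ± 0.08 for miR-27b, -0.11 ± 0.06 for miR-23a, -0.11 ± 0.05 for miR-23b, and 0.06 ± 0.08 for miR-24, in log2 units per doubling of the day. Both miR-27 slopes were thus above 0 and both miR-23 slopes below 0, but with median scaling of the channels all 4 were above 0, at 0.36 for miR-27a, 0.32 for miR-27b, 0.04 for miR-23a and 0.04 for miR-23b. The slope of miR-24 was 0.22 with median scaling and 0.0028 without day 30. By limma 0 of the 5 passed, with adjusted p between 0.28 and 0.73, while 2.47% of all tested miRs passed. At an unadjusted p under 0.05 there were also 0 of the 5 on the scale of log2(day), against 21.0% of the tested miRs. Without day 1 both miR-27 slopes passed, at 0.45 for miR-27a and 0.34 for miR-27b, each with an adjusted p of 0.044, in a fit where 18 of all 159 tested miRs passed, 15 of them upward. Without day 30 they were 0.07 (adjusted p = 0.79) and 0.07 (adjusted p = 0.72), with 0 of 159 miRs called and 27 at an unadjusted p under 0.05, so that both slopes depended on the first and the last day. On all days, with day in place of log2(day), both miR-27 slopes had an unadjusted p under 0.05 (limma, 0.0080 for miR-27a and 0.0052 for miR-27b). Each had an adjusted p of 0.052. In that fit 10 of 162 miRs passed upward and 4 downward, and 40 had an unadjusted p under 0.05.

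Within the arms the estimated slopes of both miR-23s were above 0. For miR-23a the slope was 0.20 ± 0.06 (SE) in IRI and 0.31 ± 0.07 in sham, and for miR-23b it was 0.10 ± 0.05 in IRI and 0.21 ± 0.06 in sham. With median scaling of the channels these slopes were 0.09 and 0.06 for miR-23a and 0.06 and 0.02 for miR-23b. By limma 0 of the 5 miRs passed in either arm, where 8.64% of the tested miRs passed in IRI and 1.23% in sham. The adjusted p of miR-23a was 0.056 in IRI and 0.098 in sham. At an unadjusted p under 0.05 there was 1 of the 5 in IRI, miR-23a, against 24.1% of the tested miRs, and there were 2 in sham, miR-23a and miR-23b, against 10.5%. Without day 10, miR-23a passed in both arms, at 0.21 in IRI (adjusted p = 0.043) and 0.33 in sham (adjusted p = 0.044), where 21 of all 159 tested miRs passed in IRI and 4 of 159 in sham. Without day 1 the slope of miR-23b in IRI was 0.18. For miR-27a the slope was 0.00 ± 0.09 in IRI and -0.20 ± 0.10 in sham, and for miR-27b 0.13 ± 0.07 and -0.03 ± 0.08. The sham slope of miR-27a was -0.37 without day 1 and -0.11 without day 30, and that of miR-27b -0.19 and 0.05. For miR-24 it was 0.15 ± 0.07 in IRI and 0.09 ± 0.11 in sham, the latter 0.06 without day 1 or without day 10.

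The ratios of the 5 miRs were then compared with each other on the same arrays, in 10 pairs, with exact two-sided sign-flip tests adjusted over the 10. The ratio of miR-27a was above that of miR-27b by 0.61 ± 0.19 (SD, n = 8), and on 8 of 8 arrays, between 0.31 on day 3 and 0.89 on day 30 (adjusted p = 0.026, exact). The ratio of miR-23a was above that of miR-23b by 0.25 ± 0.12 (SD, n = 8), also on 8 of 8 arrays, between 0.11 on day 14 and 0.38 on day 10 (adjusted p = 0.026, exact). In both families the paralog of the chromosome 8 cluster thus had the higher ratio on every array. Each of these differences had 1 sign throughout, and a dye effect that is unequal at the 2 probes and a difference of the paralogs cannot be told apart. The share of all pairs of tested miRs that would differ so, or pass this test, was not computed. The calls among the 10 pairs therefore cannot be called particular to these miRs.

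Within the chromosome 8 cluster, the ratio of miR-27a was above that of its neighbour miR-23a by 0.74 on average, on 7 of 8 arrays (adjusted p = 0.039, exact). It was above that of miR-24 by 0.75, on 7 of 8 arrays (adjusted p = 0.047, exact), and above that of miR-23b by 0.98, on 8 of 8 arrays (adjusted p = 0.026, exact). Within the chromosome 13 cluster, miR-27b was above miR-23b by 0.38 ± 0.60 (SD, n = 8), on 6 of 8 arrays, which did not pass (adjusted p = 0.21, exact). Leaving out 1 day put the difference of miR-23b from miR-27b between -0.47 and -0.22. The other 4 pairs did not pass either, with mean differences of 0.24 or less in size. With 7 arrays the smallest adjusted p of the pairs was 0.052 in 6 of the 8 repeats that leave out 1 day. The loss of the calls there thus says nothing about their stability. The signs of the 5 differences were kept in all 8. As all or all but 1 of the arrays had that sign, this says nothing about their stability either.

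Although their means differed, the paralogs followed each other over the arrays. Over the 8 log2 ratios Pearson's r was 0.93 between miR-23a and miR-23b (exact permutation p = 0.0011, adjusted over 30 correlations 0.017). Spearman's rho was 0.83 and did not pass (exact permutation p = 0.015, adjusted over 30 correlations 0.15). Pearson's r was 0.96 between miR-27a and miR-27b (exact permutation p = 0.0034, adjusted 0.025), and rho was 0.79 and did not pass (exact permutation p = 0.028, adjusted 0.21). Each of the 4 miRs had its paralog as the closest of the 161 other tested miRs by this measure. Without the 2 arrays farthest from the median of the first miR, r was 0.69 for the miR-23s (days 1 and 14 left out) and 0.82 for the miR-27s (days 3 and 30 left out).

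Between neighbours within a cluster, over the same ratios, r was -0.16 between miR-23a and miR-27a and -0.58 between miR-23b and miR-27b, where the median over all 13041 pairs of tested miRs was 0.01. miR-24 had r of -0.57 with miR-23a, -0.55 with miR-23b, 0.22 with miR-27a and 0.35 with miR-27b. Of the 8 pairs that are not paralogs 0 passed, with adjusted exact permutation p of 0.46 or more. Without the 2 farthest arrays r was -0.46 for miR-23a with miR-27a and 0.06 for miR-23b with miR-27b, so that the negative value of the latter rested on days 14 and 30. For miR-24 they were -0.71 with miR-23a, -0.16 with miR-23b, -0.26 with miR-27a, which had been above 0, and 0.31 with miR-27b. A test of the difference between the paralog and the neighbour correlations was not made.

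**Figure D3:**
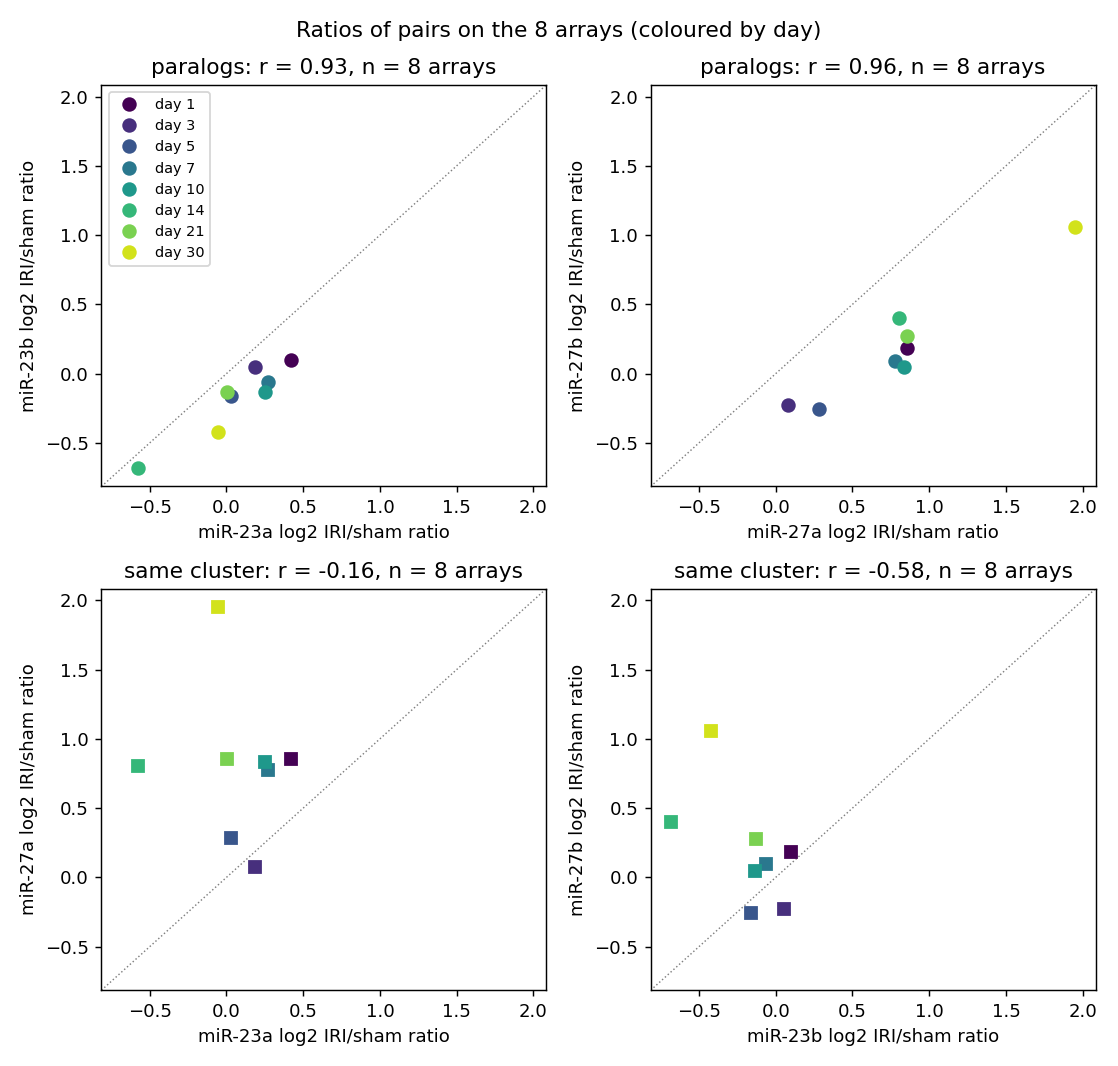
Log2 IRI/sham ratio of one miR against that of another on the 8 arrays, coloured by day, with paralogs in the upper panels, neighbours of a cluster in the lower panels, and equality as a dotted line. The paralogs lie along a line below equality, with r of 0.93 and 0.96, whereas the neighbours scatter, with r of -0.16 and -0.58.

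The levels were also correlated within each arm. Between miR-23a and miR-23b r was 0.90 over the 8 IRI samples (exact permutation p = 0.0024, adjusted 0.024) and 0.94 over the 8 sham samples (exact permutation p = 0.0012, adjusted 0.017), with rho of 0.90 in both (exact permutation p = 0.0046, adjusted 0.068). Without the 2 farthest samples it was 0.68 in IRI and 0.89 in sham. Between miR-27a and miR-27b r was 0.57 in IRI (exact permutation p = 0.14, adjusted 0.46) and 0.65 in sham (exact permutation p = 0.086, adjusted 0.46), with rho of 0.48 (exact permutation p = 0.24) and 0.67 (exact permutation p = 0.083). The paralog ranked 22nd for miR-27a and 18th for miR-27b in IRI, and 21st and 17th in sham, among 161 miRs. Without the 2 farthest samples r was 0.40 in IRI and 0.83 in sham, and leaving out 1 day moved it between 0.30 and 0.77 in IRI and between 0.40 and 0.88 in sham. With the authors' processed values r of the miR-27s in IRI was 0.79, each ranking 3rd for the other, and with median scaling of the channels it was 0.99, where the median over all pairs in IRI was itself 0.63. It was lower with plain background subtraction, at 0.41 (ranks 34 and 53), and with the median of the spots, at 0.53 (ranks 23 and 30). Whether r of the miR-27s differed between levels and ratios was not tested.

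Neighbours within an arm had r of 0.22 in IRI and -0.38 in sham for miR-23a with miR-27a, and 0.34 in IRI and -0.33 in sham for miR-23b with miR-27b. Without the 2 farthest samples (days 3 and 21 in IRI for both) these were 0.45 and -0.67, and 0.73 and -0.21. Leaving out 1 day moved r of miR-23a with miR-27a between 0.08 and 0.38 in IRI and between -0.54 and -0.21 in sham. For miR-23b with miR-27b it moved between 0.12 and 0.49 in IRI and between -0.54 and -0.03 in sham. With the authors' processed values the neighbours had r of 0.53 and 0.56 in IRI, ranking 14th to 16th for each other among 113 miRs, and 0.17 and 0.06 in sham, and with median scaling of the channels 0.94 and 0.91 in IRI and 0.80 and 0.83 in sham. Across the clusters miR-23a and miR-27b had r of 0.53 in IRI, and 0.88 without the same 2 samples. In IRI, r of miR-23b and of miR-23a with miR-27b was thus above the 0.68 of the miR-23 paralogs once days 3 and 21 were left out. miR-24 had r between -0.26 and 0.35 with the other 4 in IRI, and between -0.45 and 0.29 in sham. Without the 2 farthest samples these lay between 0.24 and 0.61 in IRI, where miR-27a turned from -0.26 to 0.35, and between -0.83 (miR-27a) and 0.22 in sham, where miR-27b turned from 0.29 to -0.48 and miR-23a from -0.06 to 0.22. In all, 4 of the 30 correlations passed, each between paralogs. These were miR-23a with miR-23b over the ratios and over the levels of both arms, and miR-27a with miR-27b over the ratios only. The ratio is the difference of the 2 levels on the same 8 arrays, so that those of the miR-23s are not separate results. The 4 passed over 8 pools. In 6 of the 8 repeats that leave out 1 day fewer passed: 0 without day 5, 7, 14 or 30, 1 without day 3, and 2 without day 21. The values of r moved less, between 0.80 and 0.95 for the ratios of the miR-23s and between 0.86 and 0.98 for those of the miR-27s. By Spearman's rho 0 of the 30 passed after adjustment.

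**Figure D4:**
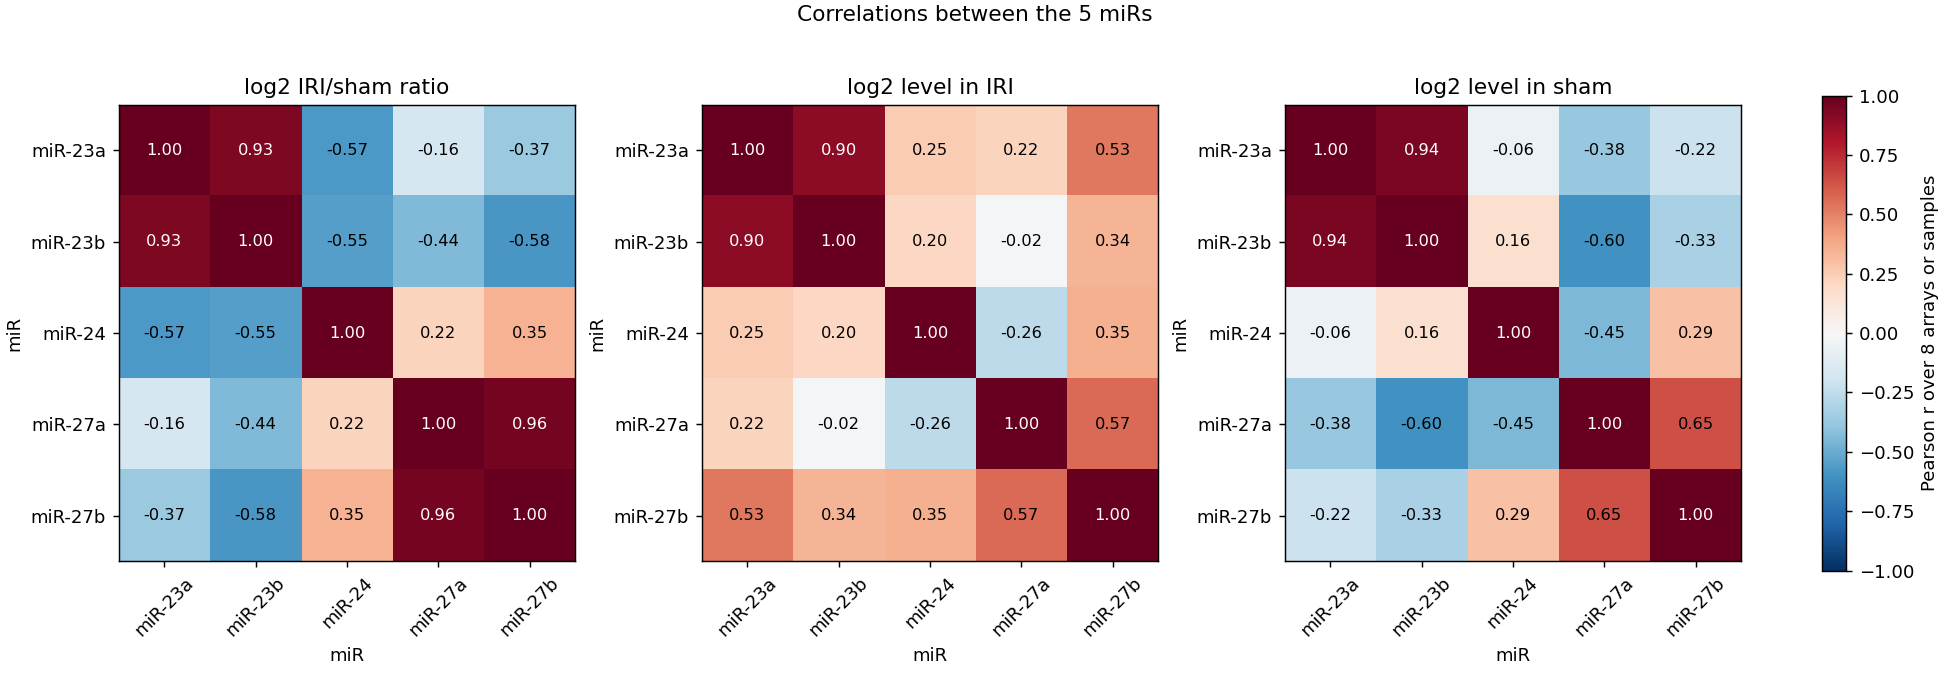
Pearson's r between the 5 miRs over the 8 log2 IRI/sham ratios (left), the 8 log2 levels in IRI (middle) and the 8 log2 levels in sham (right), with red above 0 and blue below. The miR-23 pair has 0.93, 0.90 and 0.94 and the miR-27 pair 0.96, 0.57 and 0.65, and the other values lie between -0.60 and 0.53.

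The correlations of neighbours depended on how the channels were scaled. With median scaling of the channels, miR-23a and miR-27a had r = 0.81 over the ratios and miR-23b and miR-27b also 0.81, and 27 of the 30 correlations passed, but the median over all pairs of tested miRs was then 0.50. With the authors' processed values the same neighbours had r of 0.33 and -0.01, with a median of -0.01 over all pairs. The paralogs had r between 0.93 and 0.99 for miR-23 and between 0.85 and 0.99 for miR-27 under the 5 ways of processing. miR-23a and miR-23b were each other's closest miR over the ratios under all 5, and miR-27a and miR-27b under 4. With the processed values miR-27b ranked 2nd for miR-27a, and miR-27a ranked 7th for miR-27b, among 113 other miRs. Since the targets of paralogs differ at 1 base, signal that a probe takes from the paralog cannot be told apart from common change of the paralogs.

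**Figure D5:**
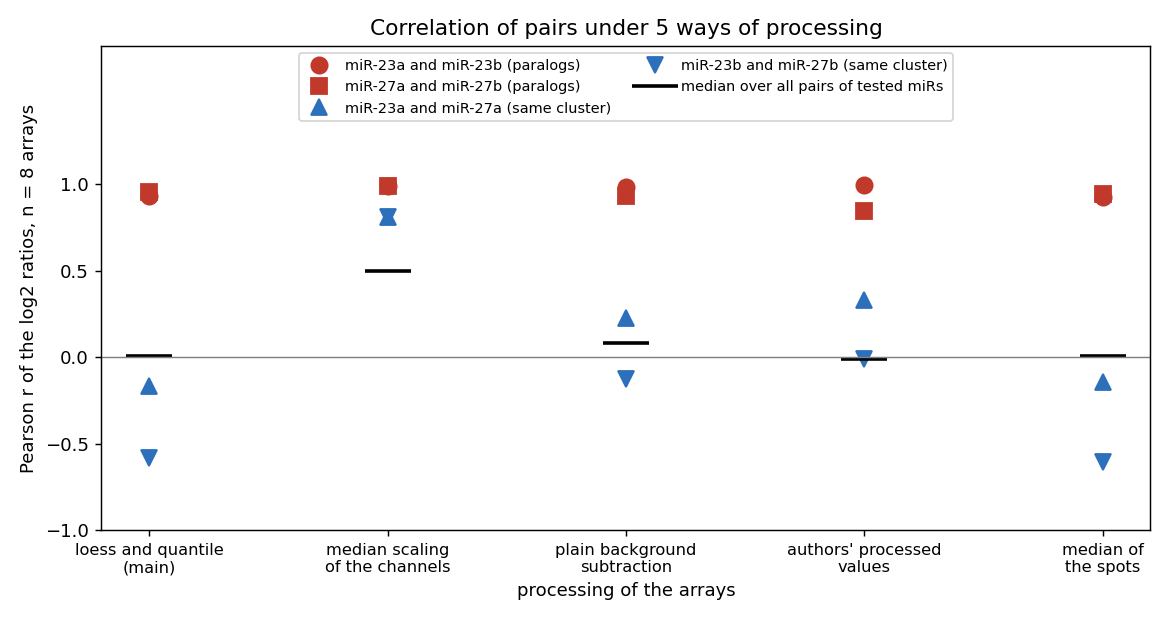
Pearson's r of the log2 IRI/sham ratios over 8 arrays under 5 ways of processing, with paralogs in red, neighbours of a cluster in blue, and the median over all pairs of tested miRs as a black bar. The paralogs lie between 0.85 and 0.99 throughout, whereas the neighbours lie between -0.61 and 0.81 and are highest where the median of all pairs is highest, at 0.50.

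Against naïve, 4 of the 5 miRs were higher in all 8 samples of each arm, and miR-24 was lower in all 8 of each. The mean log2 difference of IRI from naïve was 3.70 for miR-27a, 1.62 for miR-23a, 1.38 for miR-27b, 0.50 for miR-23b and -1.07 for miR-24. For sham it was 2.90, 1.56, 1.19, 0.68 and -1.13 in the same order of miRs. The IRI pools shared the dye Cy3 with the naïve pool, whereas the sham pools were labelled with Cy5. In the sham differences the surgery and the dye therefore cannot be told apart. For miR-24 the nearest samples were naïve, at 12.43, and sham of day 10, at 12.42, which differed by less than the standard error of 0.04 over the naïve spots. No test was possible with 1 naïve sample, which lay on the weakest array, 1.16 to 1.92 times its empty spots. With median scaling of the channels miR-24 turned to 3.48 above naïve in IRI and 3.40 in sham, so that its direction against naïve is not settled. The authors' processed values kept it below naïve, at -0.87 in IRI and -0.82 in sham. They gave 2.24 in IRI and 1.48 in sham for miR-27a and 1.05 and 1.06 for miR-23b, and median scaling gave between 3.74 and 5.44 for the 4 miRs above naïve, so that the sizes of these differences are not settled either.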

How the data were processed

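For each of the 9 arrays the authors deposited uncorrected scanner intensities, 1 mean per spot, and beside them 1 processed intensity for each miR and sample; how the latter were made is not given in the sources read. Background was corrected with normexp (offset 50), the 6 spots of a miR were averaged, the 2 channels were normalized by loess within arrays, and mean log2 intensities were quantile-normalized together with the naïve array, computed from the deposited intensities with limma 3.58.1 in R 4.3.3. The quantile step gives the naïve array the distribution of the others. limma's moderated test (lmFit, eBayes) took the 8 log2 ratios of IRI over sham, 1 per array, for all tested miRs at once (Benjamini-Hochberg, threshold 0.05). The array pairs IRI and sham of a day, as the labels give it. The file headers name the channels IRI and sham, except on day 5, where they are headed Sample A and Sample B and were assigned by the column order of the other arrays and by their correlation with the deposited processed values of day 5 (0.998 for IRI and 0.999 for sham). Exact tests were run in Python 3.11.15. The scripts were tested on simulated data. The 5 miRs are always named, the lists are their other strands, their seed relatives and cell type markers, and the 5 most alike miRs are those with the highest r. The members and lists were chosen with earlier results of these data known. P-values measure the spread over days, which holds change with time. The alternatives were median scaling, plain background subtraction, the processed values, the median of the spots, 2 other filters, a trended variance, no replicate block, no day 10, each day left out, day in place of log2(day), and rho in place of r.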

Additional observations from a re-analysis of the deposited data

Results flagged for a closer look

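In 15 sets of 8 values (5 miRs, each as level in IRI, level in sham and ratio), 2 had a value that stood apart from the rest by Dixon's criterion, which sets the gap to the nearest value against the range. Chance gives such a value in about 1 of 20 sets. The log2 level of miR-24 in sham was 12.42 on day 10, where the next was 11.59, a gap of 0.563 of the range. The log2 IRI/sham ratio of miR-27a was 1.95 on day 30, where the next was 0.85, a gap of 0.586 of the range.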

How the results depend on the processing

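With median scaling of the channels, 0 of the 5 miRs passed for the mean ratio in place of 1 (all miRs: 34 higher and 9 lower), and 27 of 30 correlations passed in place of 4, against 0 of 30 by rho. Without day 10, the days of the paper, 1 of the 5 slopes passed in IRI (all miRs: 21 of 159) and 1 in sham (4 of 159), and 0 of the 10 pair differences. Signs of correlations were followed, here and for each day left out below, only for the paralogs and the neighbours within a cluster. The correlations of the other pairs are not covered by these lists. Values that changed sign under median scaling were the mean ratio of miR-23a (-0.089), the ratio slopes of miR-23a (0.038) and miR-23b (0.044), the slopes of miR-27a in IRI (0.0488) and miR-24 in sham (-0.10), the difference of miR-23a from miR-24 (-0.17), r of miR-23a with miR-27a (0.81 over ratios, 0.80 in sham) and of miR-23b with miR-27b (0.81 and 0.83), and miR-24 against naïve (3.48 in IRI, 3.40 in sham). With the processed values these were the mean ratio of miR-24 (-0.052), the slope of miR-27a in IRI (0.0487), the differences of miR-23a from miR-27b (0.10) and of miR-23b from miR-24 (0.045), and r of miR-23a with miR-27a (0.33 over ratios, 0.17 in sham) and of miR-23b with miR-27b in sham (0.058). Plain background subtraction turned r of miR-23a with miR-27a over ratios (0.23). The slope of miR-27a in IRI, near 0, also turned with the median of the spots (0.00068), without day 10 (0.015) and with day in place of log2(day) (0.0062), and the difference of miR-23a from miR-24 turned without day 10 (-0.096). None of these values had passed before, except that the naïve differences have no test. The cause was not tested.

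Leaving out each day in turn gave 1 of the 5 miRs for the mean ratio each time (all miRs: 26 to 59), 0 to 2 for its slope (0 to 18), 0 to 1 for the slopes in IRI (2 to 21) and in sham (0 to 4), 0 to 4 of 10 pair differences and 0 to 5 of 30 correlations. Signs changed for the mean ratio of miR-24 (-0.00897 to 0.14), the slopes of miR-27a in IRI (-0.048 to 0.082) and miR-27b in sham (-0.19 to 0.051), and the differences of miR-23a from miR-24 (-0.10 to 0.13) and from miR-27b (-0.21 to 0.0101). Without the replicate block that pairs IRI and sham of an array, the mean ratio of miR-27a was 0.80 with a standard error of 0.22 (limma, adjusted p = 0.014), and no call of the 5 changed. Precision is limited by 8 arrays with 1 pool per arm and day, and against naïve by the weak signal of 1 array.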

Other observations

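Among the 157 other tested miRs, those most alike to the mean ratio of the 5 were sought. The measure was Pearson's r between the log2 IRI/sham ratio of a miR and this mean, over 8 arrays. The mean ratio of the 5 was lowest on day 3, at 0.02, and highest on day 30, at 0.61. On day 30 miR-27a stood at 1.95, miR-27b at 1.06 and miR-24 at 0.52, but miR-23a at -0.06 and miR-23b at -0.42. The 5 did not move as one, with r between -0.58 and 0.35 for the pairs that are not paralogs. Likeness to the mean is thus not likeness to each member. The closest were miR-99a with r of 0.88, miR-181a with 0.83, miR-374 with 0.74, miR-30b with 0.72 and let-7d* with 0.72. As a description, all points share the 8 arrays. By limma miR-374 passed, with IRI above sham by 0.59 on the log2 scale (adjusted p = 0.0098), and the other 4 had ratios between -0.17 and 0.35 and did not pass.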
